A study of Mus musculus with 14 samples.

Results

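The regions described here are those at which the deposited tables list a difference between the 2 conditions for the histone methyltransferase G9a and for its product H3K9me2, but none for H3K27me3. They were chosen by position and by measured values together: a region of the G9a table on chromosomes 1 to 19 was taken when it overlapped at least 1 bp of a region of the H3K9me2 table and no base of a region of the H3K27me3 table. In all, 26993 of 387570 G9a regions met this rule, which is 6.96% of them, and they are called shared regions below. Of the other G9a regions, 49799 overlapped regions of both marks, 166098 overlapped H3K27me3 regions alone and 144680 overlapped neither. Since each table holds only regions that the authors had selected on a difference, the levels and directions of G9a and H3K9me2 are given as a description, with no test.

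Chromatin was taken from cardiomyocyte-enriched populations of C57BL/6J mice, from hearts 1 week after transverse aortic constriction (TAC), which narrows the aorta and loads the left ventricle, and from sham hearts labelled as untreated. Each of the antibodies against G9a, H3K9me2 and H3K27me3 was used on 2 biological replicates per condition, and 1 input library per condition brought the total to 14 libraries; age and sex are not given. An enriched population can hold other cells, and the labels do not say what share of the cells were cardiomyocytes; ChIP values are not expression, so the cell type could not be checked by markers. For every region the authors' deposited tables give 4 values, a first pair and a second pair of libraries, without naming the condition of either. Differences are therefore given as second over first pair, and the label of each pair was not settled. That the pairs stand in the same order for each antibody was assumed and could not be checked.

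G9a, encoded by Ehmt2, works together with the related enzyme GLP, encoded by Ehmt1, to add methyl groups to lysine 9 of histone H3. The dimethylated form, H3K9me2, lies in broad stretches of silent chromatin, in lamina-associated domains and over tissue-restricted gene families, while H3K27me3 is written by the Polycomb enzyme EZH2 and covers developmental genes. In the heart, pressure overload brings back a fetal gene programme that includes natriuretic peptides, and both marks have been studied in that setting.

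To show which promoters the shared regions reached, 5 promoter windows of 300 bases are printed, from RefSeq on GRCm38 (mm10). Each runs from 250 before to 50 after an annotated start site. A gene can have several such windows, and the site need not be the start of the annotated gene (153649411 at Dnmt3b). The first 3 lie wholly inside shared regions with the strongest deposited p-values near genes, where G9a and H3K9me2 were both higher in the second pair. Dnmt3b encodes a de novo DNA methyltransferase, Adrb1 the beta-1 adrenergic receptor, and Tnnt2 cardiac troponin T. The other 2, chosen after their values were seen, show the other patterns: at Dnah14, a dynein heavy chain gene, G9a was higher and H3K9me2 lower in the second pair, and at Olfr215, an olfactory receptor gene, both were lower. CpG dinucleotides are in capitals.
Dnmt3b, chr2:153649199-153649498, plus strand: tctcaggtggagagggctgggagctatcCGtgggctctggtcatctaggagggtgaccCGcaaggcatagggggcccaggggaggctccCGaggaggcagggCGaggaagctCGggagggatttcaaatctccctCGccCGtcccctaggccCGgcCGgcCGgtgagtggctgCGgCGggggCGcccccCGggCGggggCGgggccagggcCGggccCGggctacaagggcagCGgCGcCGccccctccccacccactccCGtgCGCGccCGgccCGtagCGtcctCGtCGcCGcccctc
Adrb1, chr19:56721867-56722166, plus strand: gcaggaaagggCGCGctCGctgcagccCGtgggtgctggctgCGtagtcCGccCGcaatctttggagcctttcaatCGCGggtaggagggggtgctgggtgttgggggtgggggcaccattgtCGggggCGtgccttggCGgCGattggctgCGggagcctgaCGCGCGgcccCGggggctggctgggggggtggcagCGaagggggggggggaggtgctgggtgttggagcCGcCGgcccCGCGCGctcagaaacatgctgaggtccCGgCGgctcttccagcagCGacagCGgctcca
Tnnt2, chr1:135836084-135836383, plus strand: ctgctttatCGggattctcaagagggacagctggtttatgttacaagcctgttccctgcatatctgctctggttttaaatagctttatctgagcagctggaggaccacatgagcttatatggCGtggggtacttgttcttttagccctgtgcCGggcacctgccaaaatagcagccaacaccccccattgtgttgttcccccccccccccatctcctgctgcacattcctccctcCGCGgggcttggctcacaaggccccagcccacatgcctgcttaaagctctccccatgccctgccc
Dnah14, chr1:181576343-181576642, plus strand: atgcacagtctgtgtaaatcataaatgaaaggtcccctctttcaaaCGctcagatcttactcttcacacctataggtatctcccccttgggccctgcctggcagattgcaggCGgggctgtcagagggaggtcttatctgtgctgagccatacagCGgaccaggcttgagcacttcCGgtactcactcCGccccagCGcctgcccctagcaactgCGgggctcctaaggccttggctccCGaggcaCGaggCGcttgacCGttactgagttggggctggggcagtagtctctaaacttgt
Olfr215, chr6:116582895-116583194, minus strand: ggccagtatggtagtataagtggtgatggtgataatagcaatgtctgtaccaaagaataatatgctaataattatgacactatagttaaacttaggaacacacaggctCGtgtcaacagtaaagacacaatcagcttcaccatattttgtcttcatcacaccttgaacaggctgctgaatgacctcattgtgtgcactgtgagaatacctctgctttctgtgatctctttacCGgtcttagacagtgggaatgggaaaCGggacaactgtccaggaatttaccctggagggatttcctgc
The Dnmt3b and Adrb1 windows are rich in CpG, with 30 and 28 of them and G+C shares of 76.0% and 72.3%. The Tnnt2 window holds 5 CpG at 55.7% G+C, the Dnah14 window 11 at 57.0% and the Olfr215 window 3 at 42.3%.

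Dnmt3b and Adrb1 were not typical of the promoters that shared regions touched. Shared regions overlapped 211 of 31396 RefSeq promoter windows, of 200 genes. The touched windows had a median G+C share of 48.0% and a median of 3 CpG, against 53.0% and 7 CpG over all windows. Only 14.7% of them held 10 or more CpG, against 44.0% of all windows, and the GC-box letters GGGCGG, searched on both strands, stood in 13.7% of them, against 36.0%. The TATA-box letters TATAAA stood in 17.5% of touched windows and in 13.6% of all, and CCAAT in 39.3% and 37.3%. Windows touched by G9a regions of the other classes had median G+C shares of 52.3% where both marks overlapped, 54.3% with H3K27me3 alone and 52.7% with neither. Within the shared regions, the 95 windows under regions with more G9a in the second pair had a median of 50% G+C, and the 116 under regions with less G9a there had 45.5%. The sequences were not part of the rule, but windows of neighbouring genes overlap and regions are not replicates, so these shares carry no test.

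Most shared regions lay away from genes. Of the 26993, 18427 (68.3%) lay between protein-coding genes, 7474 (27.7%) inside a gene body and 1092 (4.05%) had their midpoint within 2500 bp of an annotated gene end. Of all other G9a regions, 58.0% lay between genes, 33.6% in gene bodies and 8.40% near a gene end. This placement was not particular to shared regions. Where both marks overlapped, the shares were similar, at 67.0%, 27.2% and 5.79%. With H3K27me3 alone they were 59.6%, 31.1% and 9.27%, and with neither mark 53.0%, 38.7% and 8.29%. The lower share near gene ends was seen with windows of 1000 bp (1.63% of shared and 3.70% of other regions) and of 5000 bp (8.09% and 15%). Shared regions near an end marked 1112 of 20665 protein-coding genes, or 5.38%, the rate against which the gene lists below are set.

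The regions were short, with a median width of 600 bp, an interval from 350 bp (10th percentile) to 1050 bp (90th percentile) and a maximum of 4900 bp, and they covered 17.8 Mb. They shared a median of 400 bp with H3K9me2 regions, so that 70.0% of the median G9a region was covered. One H3K9me2 region overlapped 96.7% of shared regions, 2 overlapped 877 of them and 3 overlapped 14, and in 225 the bounds were identical in both tables. In 620 shared regions the overlapping H3K9me2 regions had both directions. Where several overlapped, the H3K9me2 values and direction given are those of the one with the strongest deposited p-value. At the limit of the rule, 996 shared regions met their H3K9me2 region over 50 bp, which is 1 step of the grid of coordinates in the files, and 988 regions of the class with neither mark abutted one without overlap. The first 3 on each side on chromosome 1 had G9a values of the same order. Inside the rule, the region at chr1:5887001-5887400 had 27 and 29 in the second pair, against 32 and 99 in the first, the region at chr1:7373101-7374050 had 0 and 187 in the second pair, against 113 and 179 in the first, and the region at chr1:7473651-7474000 had 24 and 48 in the second pair, against 73 and 53 in the first. Outside it, the region at chr1:5646201-5646700 had 0 and 70 in the second pair, against 102 and 80 in the first, the region at chr1:5672301-5672900 had 74 and 40 in the second pair, against 85 and 124 in the first, and the region at chr1:6187951-6188250 had 1 and 40 in the second pair, against 42 and 49 in the first.

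Absence of an H3K27me3 region did not mean distance from one. The nearest region of the H3K27me3 table was a median of 1400 bp away, 41.8% of shared regions had one within 1 kb, 80.2% within 5 kb, and 809 (3%) abutted one. In the class with neither mark the median distance was 2150 bp and 66.9% had an H3K27me3 region within 5 kb. Only 1492 shared regions were over 20 kb from any. The H3K27me3 table lists regions that differ between the pairs, so a shared region can still carry H3K27me3 that was not listed there.

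G9a was lower in the second pair at most shared regions. It was higher in the second pair at 9311 regions (34.5%) and lower at 17682 (65.5%), where 44.6% of all listed G9a regions were higher in the second pair. By class, the share higher in the second pair was 51.0% where both marks overlapped, 55.2% with H3K27me3 alone and 32.0% with neither, so the shared regions stood close to the class that overlapped no mark. The median log2 difference was 0.98 among regions higher in the second pair and -1.10 among regions lower in it. The pairs did not overlap in 60.8% of shared regions, where the rate over the whole G9a table was 61.3%.

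The libraries of the second pair were unlike each other at shared regions. The median G9a value of shared regions per kb was 68.3 in library 1 and 136 in library 2 of the second pair, against 143 in library 1 and 157 in library 2 of the first pair. Library 1 of the second pair was listed at 0 in 9.80% of shared regions, and the other libraries in 0.589% (library 2 of the second pair), 1.13% and 0.152% (libraries 1 and 2 of the first pair). This was not particular to shared regions: over all G9a regions, library 1 of the second pair was at 0 in 9.34%. In the class with neither mark it was at 0 in 16.3% and stood at 52.5 per kb, against 134 in library 2. Over regions with H3K27me3 alone, library 1 of the second pair stood at 125 per kb, against 155 in library 2 of its pair. With it left out, 39.5% of shared regions were higher in the second pair, and the median log2 difference of those lower in it was -0.71; with library 2 left out in its place, these values were 30.5% and -2.14.

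**Figure D1:**
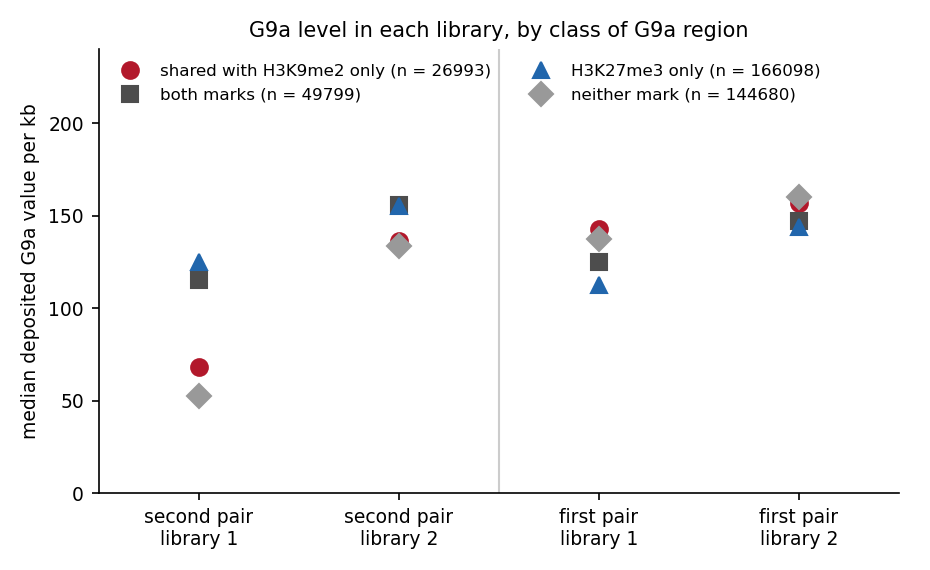
Median deposited G9a value per kb (linear axis) in each of the 4 libraries, for the shared regions (red circles), regions overlapping both marks, H3K27me3 alone and neither mark. In library 1 of the second pair the shared regions (68.3) and those with neither mark sit below the 2 classes that overlap H3K27me3, and in the other libraries the classes lie closer together.

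A limma fit on log2(value + 1) of all 388424 G9a regions gave a second look, which is no independent test, since the regions had been selected on the same values. With Benjamini-Hochberg adjustment it called 0% of regions at an adjusted p below 0.05 (0 of 26993 shared regions), and at an unadjusted p below 0.05 it passed 3.94% of all regions and 1178 shared regions (4.36%). Without library 2 of the second pair the same fit called 4431 shared regions, 12 higher and 4419 lower in the remaining library of the second pair, where 14.5% of all regions were called. That setting leaves 1 library in the pair, whose spread is assumed to be that of the other pair.

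The H3K9me2 regions that met shared regions were 27081, or 11.1% of the 243842 on these chromosomes. Another 49120 (20.1%) met only G9a regions that also overlapped H3K27me3. Of the shared regions, 45.4% had an H3K9me2 region higher in the second pair, close to the 44.3% over the whole H3K9me2 table. The median H3K9me2 values of these regions were 79 and 82 in the second pair, against 90 and 89 in the first, so no single H3K9me2 library stood apart as in the G9a table. The pairs did not overlap in 68.6% of them, where the rate over the whole H3K9me2 table was 67.9%.

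G9a and H3K9me2 differed in the same direction at 15828 shared regions, or 58.6%, and in opposite directions at 11165. These counts, and all combinations of direction below, assume the same order of pairs for G9a and H3K9me2. If the orders differed, same and opposite would trade places and the correlations would change sign. Both were higher in the second pair at 5199 regions (19.3%) and both were lower there at 10629 (39.4%). At 4112 regions G9a was higher and H3K9me2 lower in the second pair, and at 7053 G9a was lower and H3K9me2 higher. H3K9me2 was thus higher in the second pair at 55.8% of the shared regions with more G9a there, against 39.9% of those with less G9a. The 2 log2 differences were weakly related across the 26993 regions, with a Spearman rho of 0.17 and a Pearson r of 0.18; all regions come from the same 8 libraries and are not independent. Where G9a regions overlapped both marks, 55.9% had the same direction. By chromosome the share of shared regions with the same direction lay between 55.6% (chromosome 17) and 61.9% (chromosome 18).

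**Figure D2:**
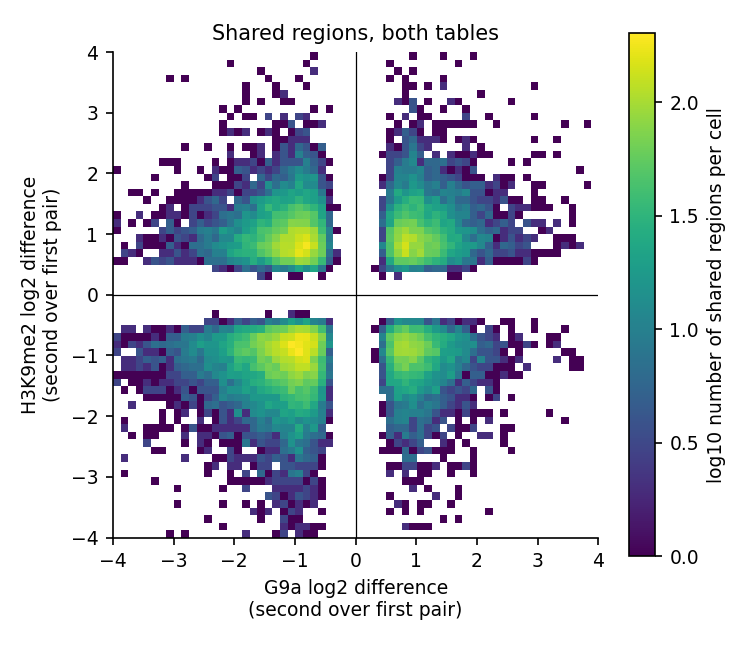
Number of shared regions (log10 color scale) by G9a log2 difference (horizontal) and H3K9me2 log2 difference (vertical), both second over first pair; 283 regions beyond 4 on either axis are not drawn. All 4 quadrants are filled, the lower left one (both lower in the second pair, 39.4%) most densely, and the empty bands along the axes follow from tables that list differing regions only.

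The same direction was somewhat more frequent where both deposited p-values were stronger. The smaller of the 2 deposited -log10 p of a region is used as its rank value. From 2 to 3 of this value, 56.5% of 11377 regions had the same direction, from 3 to 5 it was 58.5% of 9423, from 5 to 10 it was 62.4% of 5210 and from 10 to 20 it was 65.1% of 889. Among the 94 regions at 20 or more it was 63.8%. The makeup of this top group was different: 36 were higher in the second pair for both, 24 lower for both, 31 had less G9a and more H3K9me2 in the second pair, and 3 the reverse. The top group also held more regions near a gene end (12.8%, against 3.82% from 2 to 3) and wider ones, with a median of 1100 bp against 550 bp.

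**Figure D3:**
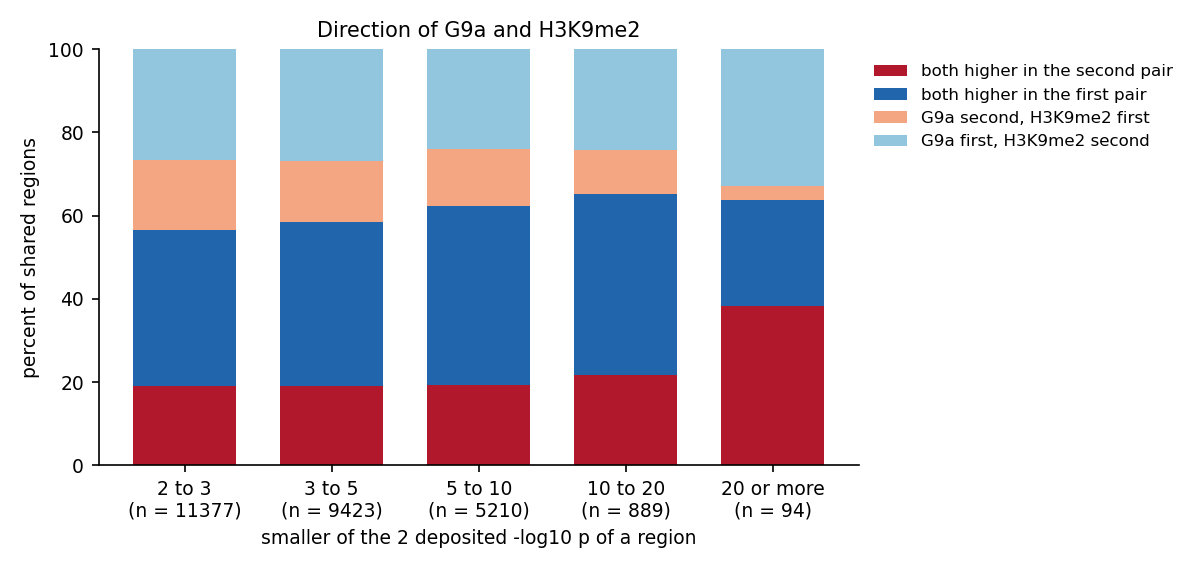
Percent of shared regions in each of the 4 combinations of direction, stacked, by the smaller of the 2 deposited -log10 p. The regions with both higher in the second pair (red) make up 19% of the lowest bin and 38.3% of the highest, and those with more G9a and less H3K9me2 in the second pair (orange) make up 16.9% and 3.19%.

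Among the regions near genes with both G9a and H3K9me2 higher in the second pair, the 6 highest rank values lay at Dnmt3b, Adrb1, Ankrd1, Ehmt2, Tnnt2 and Crip2. The last of these, at 25.7, stood below regions of other combinations such as Atraid and Slc5a6 (33.7) and Stard6 (33.0). At Dnmt3b, the region at chr2:153646701-153650150 reached over the printed promoter window, and in the authors' deposited table G9a had values of 2797 and 901 in the second pair, against 399 and 615 in the first. Its H3K9me2 region had 2707 and 2553 in the second pair, against 259 and 482 in the first. The groups did not overlap in either table, and the log2 differences were 1.86 for G9a and 2.82 for H3K9me2.

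At Adrb1, which has a single exon and transmits noradrenaline signals to the cardiomyocyte, the region at chr19:56721801-56724150 covered the printed window and most of the gene (56722117 to 56725150). G9a values were 1799 and 1912 in the second pair, against 154 and 950 in the first. H3K9me2 values were 1747 and 650 in the second pair, against 45 and 123 in the first. Again the groups were apart in both tables, with log2 differences of 1.75 and 3.82, but the first pair differed widely within itself for G9a.

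Ankrd1 encodes a cardiac ankyrin repeat protein of the sarcomere and nucleus that is induced by stretch. Its strongest shared region lay upstream of the gene start, at chr19:36120301-36122650, with G9a values of 1749 and 443 in the second pair, against 157 and 212 in the first, and H3K9me2 values of 941 and 919 in the second pair, against 135 and 76 in the first. The log2 differences were 2.56 and 3.13. A further pair of shared regions lay inside the gene. At chr19:36119201-36119550 G9a had 163 and 0 in the second pair, next to 21 and 38 in the first pair, and H3K9me2 had 112 and 159 in the second pair, against 0 and 22 in the first. At chr19:36117801-36118350 G9a had 152 and 48 in the second pair, against 56 and 77 in the first, and H3K9me2 had 147 and 186 in the second pair, against 19 and 56 in the first. For H3K9me2 the pairs were apart at all 3 regions, while for G9a they were apart only upstream, since library 2 of the second pair was low within the gene. Without library 1 of the second pair, the G9a direction turned at both regions inside the gene, where the remaining library was at 0 and 48.

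Ehmt2, the gene of G9a itself, had 1 shared region, at its far end. The region at chr17:34911151-34914400 spanned the annotated end of Ehmt2 (34914073) and the start of the promoter window of Slc44a4, a choline-like transporter family gene, and it abutted an H3K27me3 region. G9a values there were 1138 and 695 in the second pair, against 227 and 458 in the first, and H3K9me2 values were 1003 and 877 in the second pair, against 187 and 390 in the first. Both pairs were apart in both tables, with log2 differences of 1.42 and 1.70. The promoter windows of Ehmt2 lay at chr17:34898224-34898523 and chr17:34898720-34899019, outside this region. Ehmt1 had G9a regions near its ends only in the class that overlapped neither mark.

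At Tnnt2 the shared region had identical bounds in both tables, chr1:135835701-135836850. G9a values were 766 and 191 in the second pair, against 39 and 77 in the first, a log2 difference of 3.02. H3K9me2 values were 353 and 442 in the second pair, against 61 and 104 in the first, a difference of 2.25. At Crip2, a LIM-domain protein gene, the region at chr12:113143301-113145000 lay toward the far end of the gene. Its G9a values of 840 and 87 in the second pair overlapped the 50 and 211 of the first pair, while H3K9me2 was apart, with 413 and 319 in the second pair, against 118 and 134 in the first. Without library 1 of the second pair, the G9a log2 difference at Crip2 was -0.58, against 1.82 with all libraries.

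Regions away from gene ends reached similar levels. On chromosome 10, far from any gene with Nedd1 the nearest, the region at chr10:92387801-92388900 had G9a values of 1140 and 232 in the second pair, against 165 and 34 in the first, and H3K9me2 values of 1218 and 1054 in the second pair, against 53 and 48 in the first. Inside Snd1, chr6:28531351-28532500 had 610 and 176 in the second pair, against 45 and 41 in the first, for G9a and 490 and 318 in the second pair, against 1 and 12 in the first, for H3K9me2, a log2 difference of 5.75 for H3K9me2. Inside Palld, which encodes the actin-bundling protein palladin, chr8:61549301-61550650 had 1136 and 369 in the second pair, against 113 and 186 in the first, for G9a and 895 and 1085 in the second pair, against 239 and 259 in the first, for H3K9me2. At chr15:71737301-71738600, nearest to Fam135b, G9a had 1163 and 166 in the second pair, against 85 and 141 in the first, and H3K9me2 had 890 and 1000 in the second pair, against 178 and 313 in the first. In these 4 regions, as at Dnmt3b, Ankrd1, Ehmt2, Tnnt2 and Crip2, library 1 of the second pair had the highest G9a value, and library 2 stood nearer to the first pair, whereas for H3K9me2 both libraries of the second pair were above both of the first. Over the 36 regions of the top group with both higher in the second pair, library 1 of the second pair had the highest G9a value in 29, and in 12 it was at least 3 times the next highest. Library 1 of the second pair is also the one with the lowest G9a level over all shared regions. Leaving it out lowers each named difference by construction, since it held the highest value. The G9a log2 difference was then 0.83 at Dnmt3b, 1.26 at Ankrd1, 1.02 at Ehmt2, 1.70 at Tnnt2 and -0.58 at Crip2. In the 4 regions away from gene ends it was 1.21 (chromosome 10), 2.01 (Snd1), 1.30 (Palld) and 0.55 (near Fam135b). The part of this library was not tested further.

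The widest shared regions overlapped H3K9me2 over small parts of their length. The widest, at chr12:76739501-76744400 with Churc1 the nearest gene, had G9a values of 1559 and 702 in the second pair, next to 349 and 526 in the first pair, and shared 650 of its 4900 bp. The region inside Eppk1, at chr15:76108001-76112050, had 1146 and 877 in the second pair, against 417 and 544 in the first, and the one nearest to Wdr5, at chr2:27583651-27587500, had 1389 and 777 in the second pair, against 274 and 660 in the first. All 3 had more G9a in the second pair, with both values above both of the first.

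Regions with less G9a and less H3K9me2 in the second pair had smaller values. The 6 strongest near genes lay at Stard6, Gm21671, Vmn1r39, Epyc, Nck2 and Zfp551. The region near an end of Stard6, a lipid-transfer domain gene, lay inside another gene, 4930503L19Rik. It shared 200 of its 800 bp with its H3K9me2 region. There G9a had 17 and 11 in the second pair, against 102 and 238 in the first. H3K9me2 had 4 and 1 in the second pair, against 128 and 137 in the first. The log2 differences were -3.51 for G9a and -5.25 for H3K9me2. At Vmn1r39, a vomeronasal receptor gene, G9a had 35 and 85 in the second pair, against 254 and 193 in the first, and H3K9me2 had 83 and 14 in the second pair, against 169 and 210 in the first. At Epyc, which encodes the proteoglycan epiphycan, G9a had 0 and 52 in the second pair, against 134 and 148 in the first, and H3K9me2 had 71 and 26 in the second pair, against 170 and 203 in the first. At Nck2, an adaptor protein gene, G9a had 18 and 58 in the second pair, against 149 and 173 in the first, and H3K9me2 had 30 and 1 in the second pair, against 46 and 239 in the first. At Zfp551, a zinc finger gene, G9a had 2 and 32 in the second pair, against 98 and 149 in the first, and at Gm21671 it had 19 and 83 in the second pair, against 272 and 149 in the first. In all 6 the pairs were apart in both tables, as they were in 11372 of all 26993 shared regions. The 6 had been taken for strong deposited p-values.

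**Figure D4:**
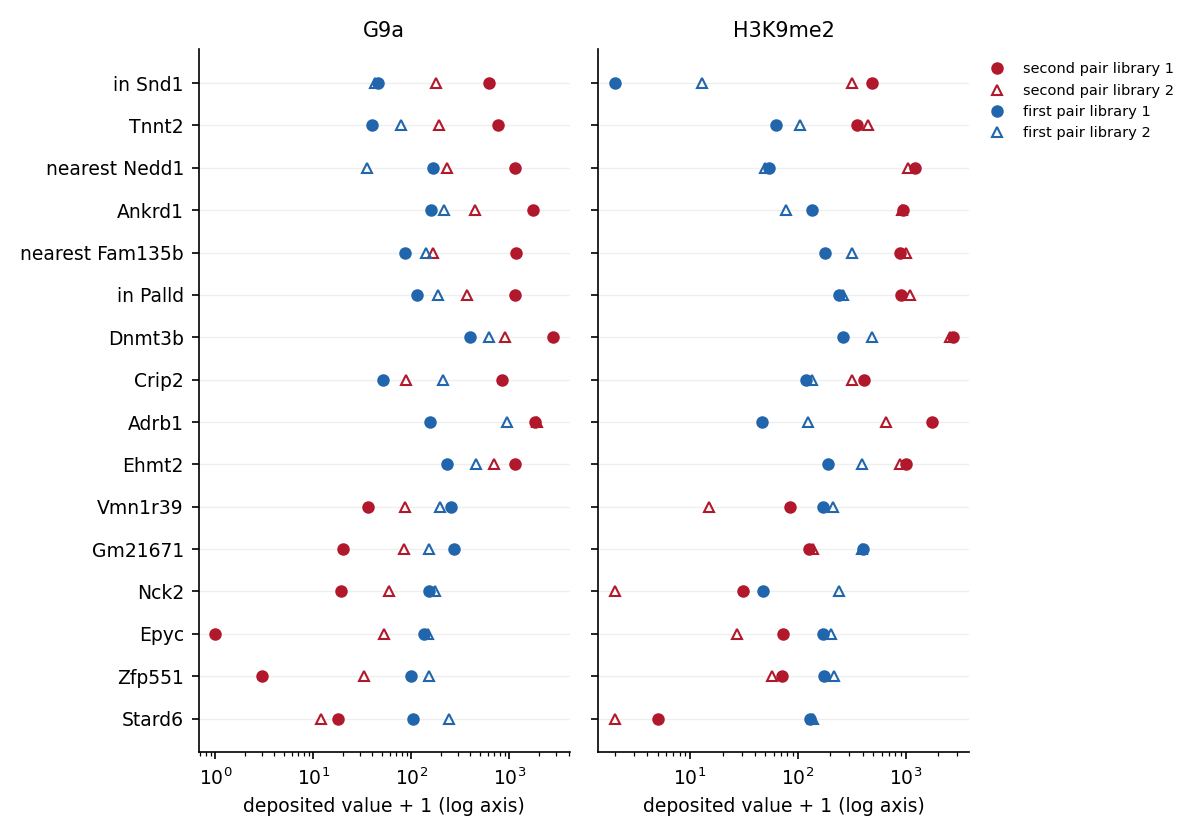
Deposited value plus 1 (log axis) of G9a (left) and H3K9me2 (right) in each library for 16 named shared regions, ordered by G9a log2 difference; red marks the second pair, blue the first pair, filled circles library 1 and open triangles library 2. In the 10 upper regions library 1 of the second pair lies farthest to the right for G9a except at Adrb1, where the 2 libraries of that pair are level. Its lead is smaller at Ehmt2 (1138 and 695). For H3K9me2 both red symbols lie together at most of the 10 regions.

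At high rank values, regions of opposite direction had 1 G9a library far above the rest. The 31 regions of the top group with less G9a and more H3K9me2 in the second pair had median G9a values of 122 and 127 in the second pair, against 698 and 140 in libraries 1 and 2 of the first. Library 1 of the first pair was the highest in all 31 and at least 3 times the next highest in 25, and the pairs were apart for G9a in 9. Their H3K9me2 medians were 178 and 505 in the second pair, against 51 and 56 in the first, with library 2 of the second pair the highest in all 31. These regions had a narrow range of widths, 22 of the 31 lying from 1000 to 1200 bp, they were spread over 14 chromosomes, and 18 lay in gene bodies. Without library 1 of the first pair, the regions of opposite direction in the top group numbered 17, against 34 with all libraries; the part of that library was not tested further. Over all 26993 shared regions, a library at least 3 times the next and at 100 or more was seen in 686 (2.54%) for G9a, against 2.38% of other G9a regions. Library 2 of the second pair was that library most often, in 229 shared regions (0.848%), against 0.942% of other G9a regions. Library 1 of the first pair was it in 217 (0.804%), against 0.398%, and library 2 of that pair in 154 (0.571%), against 0.570%. Library 1 of the second pair was it in 86 (0.319%), against 0.470%.

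**Figure D5:**
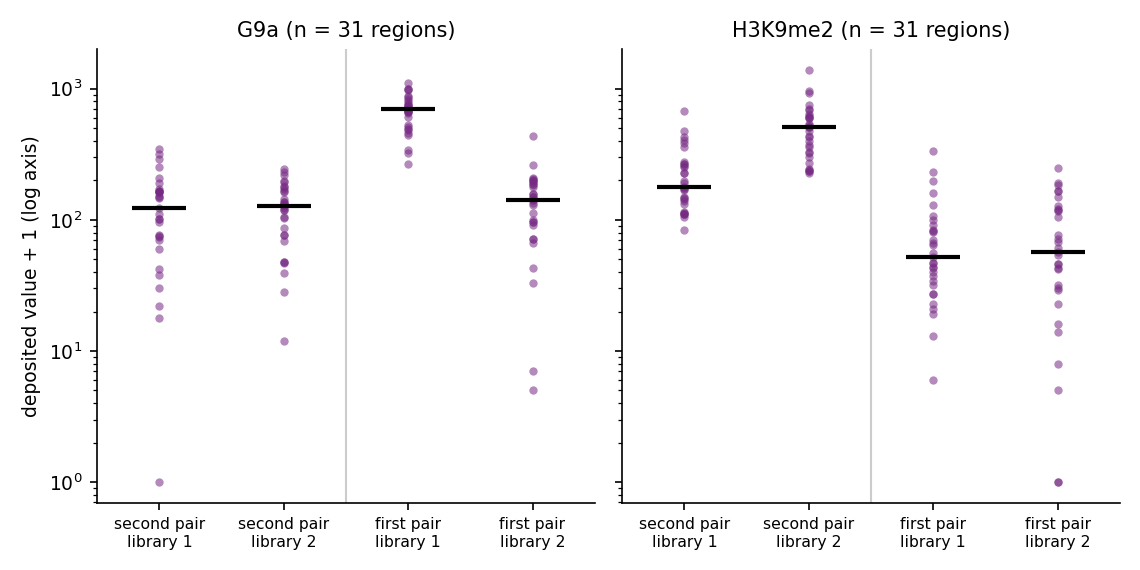
Deposited values plus 1 (log axis) of the 31 shared regions with both -log10 p at 20 or more, less G9a and more H3K9me2 in the second pair; each point is a region and each bar the median over regions. For G9a, library 1 of the first pair (median 698) stands above the other 3 libraries, which are level with each other; for H3K9me2, library 2 of the second pair has the highest median (505).

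Single genes show both kinds of opposite region. At the neighbouring genes Atraid and Slc5a6, of which the second encodes a vitamin transporter, chr5:31049951-31051100 had G9a values of 165 and 103 in the second pair, against 646 and 202 in the first, and H3K9me2 values of 146 and 427 in the second pair, against 31 and 76 in the first. At Ccdc6, G9a had 146 and 118 in the second pair, against 670 and 96 in the first, and at Vstm4 it had 208 and 181 in the second pair, against 837 and 99 in the first, so that library 2 of the first pair was below both libraries of the second. At Tmem170, G9a had 41 and 47 in the second pair, against 337 and 42 in the first. Without library 1 of the first pair, the G9a direction turned at Ccdc6, Vstm4 and Tmem170, to log2 differences of 0.46, 0.97 and 0.066. In the other direction the libraries of a pair lay closer together. At Dnah14, chr1:181576101-181577400 had G9a values of 256 and 311 in the second pair, next to 68 and 119 in the first pair, and H3K9me2 values of 138 and 145 in the second pair, against 296 and 345 in the first. At Wfdc6a, G9a had 364 and 207 in the second pair, against 47 and 120 in the first, and H3K9me2 had 70 and 24 in the second pair, against 181 and 159 in the first. At Gpam, the mitochondrial glycerol-3-phosphate acyltransferase gene, G9a had 567 and 297 in the second pair, against 129 and 203 in the first, and H3K9me2 10 and 38 in the second pair, against 68 and 167 in the first. At Asprv1, a skin protease gene, G9a had 853 and 493 in the second pair, against 237 and 184 in the first, and H3K9me2 13 and 3 in the second pair, against 86 and 77 in the first, over only 100 shared bp. In these 4, also taken for strong deposited p-values, the pairs were apart in both tables, as in 11372 of all 26993 shared regions.

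The gene lists had been put together with earlier results of these data known, and their counts are read against the 5.38% of all protein-coding genes. Of 33 enzymes and readers of H3K9 and DNA methylation, 3 had a shared region near an end: Dnmt3b, Ehmt2 and Cdyl, a chromodomain protein. At Cdyl, G9a had 119 and 195 in the second pair, next to 101 and 90 in the first pair, and H3K9me2 had 145 and 122 in the second pair, against 325 and 335 in the first, so the directions were opposite. Of 22 fetal and stress genes of the heart, only Ankrd1 had one. No shared region lay near an end of Nppa, Nppb, Acta1, Myh6 or Myh7, the natriuretic peptide, skeletal actin and myosin heavy chain genes; Acta1 had 4 G9a regions near its ends, all of the class with H3K27me3 alone. Of 26 cardiac transcription factors none had one near an end, Gata4 included, and Mef2c had 1 inside the gene. Of 22 sarcomere genes, Tnnt2 and Pdlim5 had one. At Pdlim5, G9a had 0 and 78 in the second pair, against 132 and 56 in the first, which overlap, and H3K9me2 had 44 and 29 in the second pair, against 78 and 163 in the first.

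Of 29 calcium handling and ion channel genes, 4 had a shared region near an end: Adrb1, Itpr2, Kcnd2 and Cacnb2. At Itpr2, an inositol trisphosphate receptor gene, G9a had 2 and 112 in the second pair, against 119 and 90 in the first, and without library 1 of the second pair the log2 difference was 0.10, against -0.86. At Kcnd2, a potassium channel gene of the transient outward current, G9a had 23 and 45 in the second pair, against 64 and 77 in the first, and H3K9me2 had 102 and 56 in the second pair, against 23 and 41 in the first. With 4 of 29 genes, and with 1 to 5 genes in most of the short lists, the counts are too small to be set apart from the background.

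Of 54 marker genes of other cell types of the heart, 3 (5.56%) had a shared region near an end, close to the 5.38% of all protein-coding genes: 1 of 15 endothelial markers (Pecam1), 1 of 10 smooth muscle and pericyte markers (Kcnj8), 1 of 15 leukocyte markers (Cd3e) and 0 of 14 fibroblast markers. At Pecam1, the shared stretch was 50 bp, with G9a values of 669 and 455 in the second pair, next to 401 and 216 in the first pair, and H3K9me2 values of 0 and 60 in the second pair, against 85 and 118 in the first. At Kcnj8, where the shared stretch was also 50 bp, G9a had 140 and 123 in the second pair, against 66 and 61 in the first. H3K9me2 had 34 and 169 in the second pair, against 184 and 200 in the first. At Cd3e, G9a had 34 and 29 in the second pair, against 34 and 92 in the first, and H3K9me2 52 and 71 in the second pair, against 98 and 139 in the first. What part a difference in cell makeup between the libraries has in these values was not tested, and in bulk chromatin fewer cells with a mark and less of the mark per cell cannot be told apart.

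Genes silent outside the germ line were represented by 3 of 28: Sycp2 and Sycp3, of the synaptonemal complex, and Brdt, a testis bromodomain gene. At Sycp2, G9a had 228 and 277 in the second pair, next to 83 and 86 in the first pair, and H3K9me2 had 97 and 70 in the second pair, against 233 and 153 in the first. At Brdt, G9a had 210 and 130 in the second pair, against 444 and 315 in the first, and H3K9me2 23 and 67 in the second pair, against 173 and 78 in the first. At Sycp3, G9a had 80 and 259 in the second pair, against 92 and 72 in the first, and H3K9me2 161 and 214 in the second pair, against 62 and 72 in the first. The 3 genes thus showed 3 of the combinations of direction, although without library 2 of the second pair the G9a log2 difference at Sycp3 was -0.035, against 1.04. Of 28 imprinted genes, Peg10 and Sgce, whose start sites are adjacent, had 2 shared regions between them. The one near the starts of both genes shared 100 bp with its H3K9me2 region. It had G9a values of 164 and 116 in the second pair, against 18 and 133 in the first. H3K9me2 values were 84 and 35 in the second pair, against 0 and 62 in the first. Without library 1 of the first pair its H3K9me2 difference turned, to -0.058. The other, near the far end of Peg10, had G9a values of 42 and 72 in the second pair, against 22 and 39 in the first, and H3K9me2 values of 51 and 124 in the second pair, against 74 and 20 in the first. None of 39 Hox genes had one, although all 39 had a G9a region near an end. Of 25 class I and II histocompatibility genes 5 had one, among them H2-Q6 with G9a values of 260 and 282 in the second pair, against 115 and 231 in the first, and H2-Q1 with 91 and 112 in the second pair, against 145 and 223 in the first. At H2-M2, G9a had 19 and 89 in the second pair, against 145 and 102 in the first. The class I genes are near-identical copies, so reads may have been placed among them uncertainly.

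The chemosensory receptor families held the largest counts. Of 1104 olfactory receptor genes, 122 (11.1%) had a shared region near an end, as did 35 of 352 vomeronasal receptor genes (9.94%). G9a was higher in the second pair at an end of 24 of these 122 olfactory receptor genes (19.7%) and lower at an end of 104 (85.2%), where the counts over all 1112 genes with a shared region were 405 (36.4%) and 740 (66.5%); a gene with several regions can count on both sides. The olfactory receptor genes had a median log2 difference of -1.03, against -0.80 over the shared regions near all protein-coding genes. Among olfactory receptors with a shared region, 62 (50.8%) had both G9a and H3K9me2 lower in the second pair, 13 (10.7%) both higher and 51 (41.8%) opposite directions. Over all 1112 genes these counts were 476 (42.8%), 226 (20.3%) and 450 (40.5%). At Olfr784, G9a had 25 and 7 in the second pair, next to 98 and 84 in the first pair, and H3K9me2 had 16 and 46 in the second pair, against 164 and 123 in the first. At Olfr215, whose window is printed above, G9a had 196 and 61 in the second pair, against 216 and 365 in the first, and H3K9me2 had 56 and 50 in the second pair, against 95 and 222 in the first. At Olfr1502 the direction was the other one, with G9a values of 286 and 473 in the second pair, against 211 and 210 in the first, and H3K9me2 values of 99 and 246 in the second pair, against 6 and 132 in the first. At Vmn1r211, G9a had 0 and 48 in the second pair, against 175 and 105 in the first. Near an end of Vmn2r88, inside the gene Gm7247, it had 0 and 13 in the second pair, against 65 and 55 in the first. These genes lie in clusters of similar copies, so neighbours are not independent and reads may be shared between them. Zinc finger genes named Zfp (25 of 388, or 6.44%) stood nearer to the rate over all genes. Defensins (6 of 70, or 8.57%) lay between that rate and the vomeronasal receptors. The share was higher, at 20%, among the 25 histocompatibility genes. At Defa29, an alpha-defensin gene, G9a had 2 and 149 in the second pair, against 218 and 258 in the first, and at Zfp775 it had 121 and 196 in the second pair, against 110 and 50 in the first.

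Along the genome the shared regions were mostly isolated. Joined at gaps of up to 10 kb, they formed 22444 runs, and 69.7% of shared regions stood alone. Runs of 3 or more numbered 698, and the longest held 8 regions, one run over Ide, the insulin-degrading enzyme gene on chromosome 19, and one in a stretch of chromosome 12 nearest to Gm6803. In the Ide run, G9a was higher in the second pair at 1 of the 8 regions, H3K9me2 at 4, and 5 had the same direction for both. Of 2411 windows of 1 Mb, 2398 held a shared region, with a median of 10. The fullest, at 13 Mb of chromosome 19 in an olfactory receptor cluster, held 47 of its 169 G9a regions, 21 of them higher in the second pair. The next, at 26 Mb of chromosome 7 among cytochrome P450 and vomeronasal receptor genes, held 44 of 151.

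The gene bodies with the most shared regions belonged to long genes. Dpp10, which encodes a potassium channel subunit, held 62 of its 220 G9a regions, 17 of them with more G9a in the second pair. Nrg3, a neuregulin gene, held 42 of 163, Tmem132d 38 of 147, Cntnap2, a neurexin family gene, 35 of 243, and Cntnap5c 31 of 92. Lrp1b, a lipoprotein receptor family gene, held 29 of 165, 5 of them higher in the second pair. Gene lengths differ, and Cntnap2 alone spans 2241 kb, so these counts are not compared between genes. By chromosome the shared regions made up from 4.58% of G9a regions on chromosome 11 to 8.66% on chromosome 3.

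Of 919 RefSeq microRNA hairpins, 4 touched a shared region, or 0.435%, where 0.672% of the RefSeq promoter windows did. G9a regions of the other classes, which are more numerous, touched 31 hairpins (both marks), 118 (H3K27me3 alone) and 70 (neither). At Mir1839 G9a had 11 and 48 in the second pair, next to 136 and 134 in the first pair, and at Mir6244 10 and 192 in the second pair, against 260 and 248 in the first; H3K9me2 was lower in the second pair at both. At Mir381 and Mir7094-2 the G9a values of the pairs overlapped, and the G9a direction turned without library 1 of the first pair at Mir381 and without library 1 of the second pair at Mir7094-2.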

How the data were processed

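ChIP-seq was carried out on cardiomyocyte-enriched chromatin of sham and TAC mice (14 libraries: 12 immunoprecipitates and 2 inputs, which were not used here). Per the labels' protocols, the library kit was NuGEN Ovation Ultralow V2. The submitters' processing notes name BWA 0.7.10-r789, SAMtools 1.1 and the build mm10 (GRCm38); the sources used here do not give the caller of the regions, its scaling or its use of input. For each antibody the authors deposited a headerless table with the coordinates of a region, a sign, and 4 whole values in pairs with a -log10 p, the lowest of which was 2. The sign is that of the difference of pair means in all lines. The deposited values, the -log10 p and the calls of regions are the authors'. As their scaling is unknown, no count model was used, and the depth per library is not known; sums of G9a values over the autosomal regions were 41845157 and 48232682 in the second pair, against 36786088 and 44573872 in the first. File titles name sham before TAC, but no table says which pair is which. No replicate check beyond the pairs exists, and the limma p-values measure only the spread between these libraries. What spread the deposited -log10 p measures is not known. At Crip2 it was 42.2 for G9a although the values of the pairs overlapped, so a high rank value does not mean close replicates.

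Overlaps of at least 1 bp were computed in Python 3.11.15 and checked with bedtools 2.31.1. The log2 difference is that of pair means plus a pseudocount of 1, which understates the change of low regions. With 2 libraries a pair, the smallest two-sided p of an exact permutation test is 0.333. limma 3.58.1 (R 4.3.3) was fitted to log2(value + 1) of all 388424 G9a regions, after a test on simulated data. Gene ends came from RefSeq on GRCm38.p6, promoter windows and hairpins from RefSeq tables of the same build; both ends of a gene were used, within 2500 bp. The members and lists were chosen with earlier results of these data known. Named regions were the 6 per direction of the same sign, 4 per opposite combination and 4 without a gene end with the highest smaller -log10 p, up to 3 genes per list, the 3 widest and a set of fixed genes; others are marked as chosen after their values were seen. Alternatives were a wider cover, a -log10 p of 5 or more, other windows and pseudocounts, equal sums, quantile normalisation, a filter on low values and each library left out.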

Additional observations from a re-analysis of the deposited data

How the results depend on the processing

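No paired analysis was possible because the columns of the tables carry no replicate numbers, so the fit with a replicate block was not run. A rule that asked for a covered share of at least 0.5 of the G9a region kept 4.99% of G9a regions, of which 61.4% had the same direction for both and 33.7% were higher in the second pair for G9a. With a -log10 p of 5 or more the share of G9a regions was 4.80% when all 3 tables were filtered and 3.21% when G9a and H3K9me2 were; in the second case 62.8% had the same direction, 33.1% and 44.2% were higher in the second pair for G9a and H3K9me2, and the median log2 differences were 1.33 and -1.48. Leaving out regions within 1000 bp of an H3K27me3 region kept 4.05%. Equal library sums moved the median G9a log2 difference of all regions by -0.16 and those of the shared regions to 0.85 and -1.30. The shares of directions did not change, which is no sign of stability, since every shared region was listed with a difference of at least 0.27 (log2) in the G9a table and the median shift at shared regions was -0.18. A pseudocount of 10 gave 0.87 and -0.96. Regions whose pairs did not overlap had the same direction in 60.7%, were higher in the second pair in 33.7% for G9a and 44.7% for H3K9me2, and had medians of 1.13 and -1.30. The share near a gene end was 1.63% at 1000 bp, 8.09% at 5000 bp and 4.59% with any overlap, and the genes near a shared region numbered 442 at 1000 bp and 2219 at 5000 bp.

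With each library left out in turn, the share with the same direction lay between 57.6% and 58.7%. The share higher in the second pair lay between 30.5% and 39.5% for G9a, and between 44.0% and 46.9% for H3K9me2. The median log2 difference lay between 0.82 and 1.29 for regions higher in the second pair, and between -2.14 (without library 2 of the second pair) and -0.71 (without library 1 of it) for the others; the cause was not tested. The limma calls lay between 0 and 4431, the highest count without library 2 of the second pair and 0 in every other setting that was run. The regions of opposite direction with both -log10 p at 20 or more numbered from 17 (without library 1 of the first pair) to 38. Leaving out the 1143 regions where 1 library was at least 3 times the next in either table, a choice made after seeing the data, moved no share of directions beyond its 95% interval. This is no sign of stability, since those regions were only 4.23% of the shared regions. The interval also counts regions as independent, which they are not. The tables hold listed regions only, give no depth and have 2 libraries per condition, which limits what can be said of any single region.

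At single regions, leaving out each library in turn, also a choice made after seeing the data, turned the G9a direction of 1080 and 1025 shared regions without libraries 1 and 2 of the first pair, and of 1917 (7.10%) and 1297 without libraries 1 and 2 of the second; for H3K9me2 the turned regions numbered from 847 to 1021. Of 64 regions given with their values, the G9a direction turned at 11. The log2 difference then ranged from -0.58 to 3.19 at Crip2, from -2.33 to 0.46 at Ccdc6, from -2.10 to 0.97 at Vstm4, from -2.91 to 0.066 at Tmem170, from -5.14 to 0.10 at Itpr2, from -0.035 to 1.65 at Sycp3, from -0.46 to 1.18 and from -4.93 to 2.43 at the regions inside Ankrd1, from -1.62 to 0.41 at Mir381, from -3.16 to 0.16 at Mir7094-2, and from -7.20 to 0.35 at chr1:7373101-7374050. The H3K9me2 direction turned at 2 of 61, from -0.058 to 5.92 at Peg10 and Sgce and from -0.20 to 2.14 at Mir381. Values of 0 in the remaining library make the ends of these ranges depend on the pseudocount.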
